A study of Mus musculus with 8 samples.

Results

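The transcripts described here belong to 9 genes that respond to inflammatory signals: the acute phase genes Saa3 and Lcn2, the cytokine genes Il6 and Lif, the prostaglandin synthesis genes Ptgs2 and Ptges, the nitric oxide synthase gene Nos2 and the feedback inhibitor genes Nfkbia and Tnfaip3. They were taken by gene symbol from the 18501 genes of the authors' deposited table. All 9 passed the filter on low counts and are among the 14359 genes tested. The libraries came from cultured chondrocytes of 10-day-old CD1 mice whose locus for miR-140, a cartilage microRNA, was mutated in 2 ways. The 4 groups were CT mutants, which have a C>T base change, CT wild types from that line, CG mutants, which have the seed region of the 3p arm altered, and CG wild types from that line. The series describes both mutations as raising the 5p arm. Each group has 2 libraries, and total estimated counts ran from 26536868 to 28678641 per library.

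Cells of every group were released from rib cartilage by overnight collagenase digestion, filtered and plated before RNA was extracted, so the values are those of plated cells and not of intact cartilage. The labels do not say how long the cells were cultured, whether paired libraries of a group are different mice, or whether the lines were prepared together. The p-values therefore reflect only how far these libraries spread, part of which can be technical, and line, culture and day cannot be told apart. Mature arms of miR-140 were not analysed here, and the mRNA levels below do not check the genotype labels. The lines separated on a first principal component holding 64.5% of the variance, and on the second, with 12.2%, CG mutant replicate 1 stood apart at 47 against -8.36 for CG mutant replicate 2. Results that rest on CG mutant replicate 1 are given below with and without it.

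Interleukin 1, tumour necrosis factor and microbial products act on receptors that release the transcription factor NF-kB from its inhibitors, and NF-kB together with C/EBP factors switches on acute phase, cytokine, cyclooxygenase and nitric oxide synthase genes. Nfkbia and Tnfaip3 are themselves induced and close the loop: the first encodes IkB-alpha, which holds NF-kB in the cytoplasm, and the second A20, a ubiquitin-editing enzyme that shuts off the upstream signal. Il6 and Lif proteins signal through the shared receptor chain gp130 and STAT3. In chondrocytes such genes are known to respond to inflammatory cytokines, and prostaglandin E2 and nitric oxide are among the mediators studied in joint disease.

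Promoters are shown for Saa3, Lcn2, Il6 and Ptgs2, picked because they differed between the lines in both wild types and mutants and hold a C/EBP match. Nfkbia is shown for its NF-kB match. Lif also differed in both comparisons, but it holds no C/EBP match and is not shown. Since the choice used both the line difference and the motif, the sequences shown cannot link them, and such a link was not tested. The sequences are the 250 bases before the annotated start, 5′ to 3′ on the gene's strand, from RefSeq on GRCm38.p6. Capitals mark matches to the NF-kB consensus in Il6 and Nfkbia and to the C/EBP motif TTGCNNAA, on either strand, in Saa3, Lcn2, Il6 and Ptgs2. The windows lie at chr5:30012864-30013113, plus strand (Il6), chr7:46715677-46715926, minus strand (Saa3), chr2:32387740-32387989, minus strand (Lcn2), chr1:150099781-150100030, plus strand (Ptgs2) and chr12:55492648-55492897, minus strand (Nfkbia).
Il6 promoter: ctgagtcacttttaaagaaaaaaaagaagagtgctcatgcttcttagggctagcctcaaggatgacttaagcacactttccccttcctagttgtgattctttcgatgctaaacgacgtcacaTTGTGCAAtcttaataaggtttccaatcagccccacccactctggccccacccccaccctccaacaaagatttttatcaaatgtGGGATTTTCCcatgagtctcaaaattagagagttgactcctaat
Saa3 promoter: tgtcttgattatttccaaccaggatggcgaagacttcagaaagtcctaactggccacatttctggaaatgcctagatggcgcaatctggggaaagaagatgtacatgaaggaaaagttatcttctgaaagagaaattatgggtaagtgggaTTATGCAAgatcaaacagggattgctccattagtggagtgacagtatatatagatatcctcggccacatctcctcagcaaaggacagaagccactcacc
Lcn2 promoter: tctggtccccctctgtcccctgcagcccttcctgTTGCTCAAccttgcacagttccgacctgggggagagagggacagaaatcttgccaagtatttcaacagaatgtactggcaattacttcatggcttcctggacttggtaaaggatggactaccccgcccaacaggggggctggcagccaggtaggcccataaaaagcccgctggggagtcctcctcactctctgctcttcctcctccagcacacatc
Ptgs2 promoter: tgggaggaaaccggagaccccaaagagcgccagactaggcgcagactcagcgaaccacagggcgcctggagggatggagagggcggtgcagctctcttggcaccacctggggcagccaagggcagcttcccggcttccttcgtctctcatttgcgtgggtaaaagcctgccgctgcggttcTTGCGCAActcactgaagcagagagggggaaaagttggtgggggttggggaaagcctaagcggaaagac
Nfkbia promoter: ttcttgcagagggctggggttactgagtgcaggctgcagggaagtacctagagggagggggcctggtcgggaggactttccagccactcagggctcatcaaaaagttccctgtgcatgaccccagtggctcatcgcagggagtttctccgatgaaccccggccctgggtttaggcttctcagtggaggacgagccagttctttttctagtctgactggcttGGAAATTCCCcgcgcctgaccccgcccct

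RefSeq promoters were found for 8 of the 9 genes, in 9 windows, since Tnfaip3 has 2 starts; Nos2 is named only. The C/EBP motif was present in 4 of the 8, namely Saa3, Lcn2, Il6 and Ptgs2, against 9.56% of the 32851 promoters of the same length. An NF-kB match was present in Il6, Lif, Nfkbia and Tnfaip3, which is also 4 of the 8, against 7.25% of promoters. The AP-1 motif TGANTCA was found in Il6, Lif and Tnfaip3, 3 of the 8, against 6.75% of promoters. For the STAT motif TTCNNNGAA the count was 0 of 8, against 7.02% of promoters. These percentages count promoter windows, while the 8 are genes. Tnfaip3 has its NF-kB and AP-1 matches before the same start, and none before its other start. No match of one motif overlapped a match of another. In Il6 the matches lay at -128 to -121 (C/EBP) and -44 to -35 (NF-kB) from the start, and in Nfkbia the NF-kB match lay at -29 to -20. These are matches of letters, not measured binding sites.

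**Figure D1:**
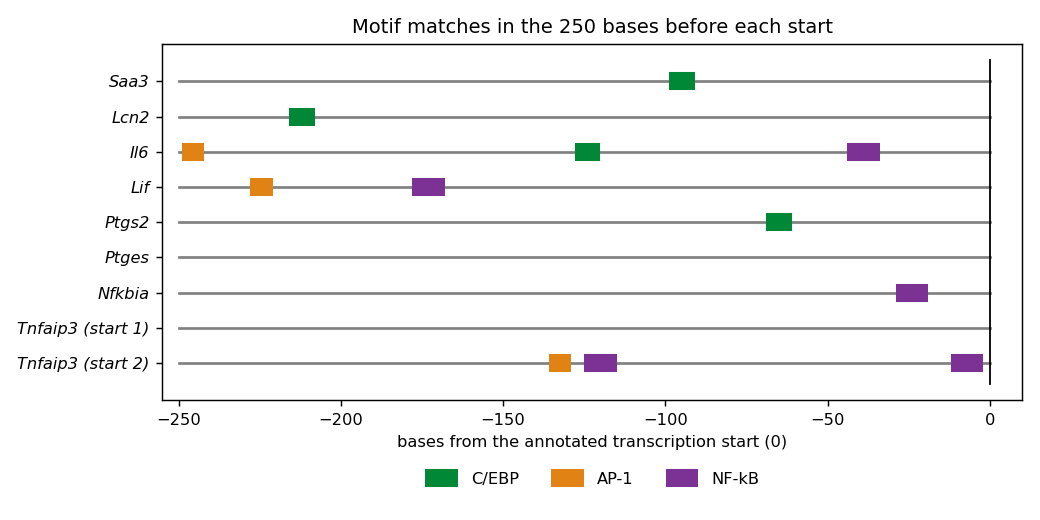
Positions of motif matches in the promoters of 8 of the genes (rows; Tnfaip3 has 2 starts) along the 250 bases before the annotated start, in bases from it; each box is 1 match, coloured by motif. C/EBP boxes appear in Saa3, Lcn2, Il6 and Ptgs2 and NF-kB boxes in Il6, Lif, Nfkbia and Tnfaip3.

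The seed of the 3p arm, which the CG mutation alters, is shown with its sites among the 9 genes because a site is where this arm could bind. The RefSeq mature sequence lies at chr8:107551288-107551308, plus strand, on GRCm38.p6, with the seed (bases 2 to 8) in capitals. In the longest annotated 3′ UTR, the 7-base match to the seed occurred in Il6, Lif and Tnfaip3, 3 of the 9, and in 19.3% of the 13847 genes with such a UTR. The sites are shown 5′ to 3′ with the match in capitals.
mmu-miR-140-3p: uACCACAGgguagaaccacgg
Il6 site: ggacattcctcaCTGTGGTcagaa
Lif site: cagaccaggaagCTGTGGTccttg
Tnfaip3 site: ggcggagcacatCTGTGGTcaatg

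The label of the cells was checked first. All 12 chondrocyte markers were above 0 in every library, and their summed level was 41642 to 42045 CPM (read counts per library size, after TMM adjustment) in CT mutants, 51569 to 61635 in CT wild types, 32293 to 55313 in CG mutants and 33208 to 34171 in CG wild types. Col2a1 made up most of these sums, at 30872 to 50147 CPM in CT libraries and 24133 to 41085 in CG libraries. Of the 12, 6 passed the test as higher in CT wild types and 1 as lower, and 4 and 1 did so between mutants. Neutrophil, erythroid and endothelial markers were also present, and the sum of each list was higher in every CT library than in any CG library. The 10 neutrophil markers summed to 67.8 to 84.9 CPM in CT mutants, 151 to 228 in CT wild types, 10.6 to 25.5 in CG mutants and 19.8 to 24.0 in CG wild types. Of these 10, 8 passed the test as higher in CT wild types than in CG wild types and none as lower, while between mutants 4 were higher in CT and 1, Camp, was lower. Over all genes tested, 17% passed as higher in CT and 16.8% as lower between wild types, and 17.9% and 18.2% between mutants. The 7 erythroid markers summed to 998 to 2687 CPM in the 4 CT libraries and to 2.95 to 16.8 in the 4 CG libraries, where Hbb-b2 was at 0 in all 4 and Hbb-b1 in both wild types. Of the 7, 5 were higher in CT between wild types, where Hbb-bs and Hbb-bt did not pass, and 7 between mutants. The 6 endothelial markers summed to 55.0 to 100.4 CPM in CT libraries and 11.7 to 36.0 in CG libraries. Of these 6, 3 passed as higher in CT between wild types and 4 between mutants, with 0 lower in either. The sums of the 10 fibroblast and perichondrium markers overlapped, at 2868 to 3823 CPM in CT libraries and 2676 to 3835 in CG libraries. Of these 10, 2 passed as higher in CT wild types and 1 as lower, near the shares of all genes. Col1a1 was at 755 to 1248 CPM in CT libraries and 104 to 312 in CG libraries. Dcn went the other way, at 449 to 668 and 2249 to 2683 CPM. Skeletal muscle sums overlapped too, at 9.87 to 12.4 CPM in CT libraries and 10.1 to 38.1 in CG libraries.

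Macrophage and leukocyte markers, 10 in all, summed to 343 to 372 CPM in CT mutants, 325 to 365 in CT wild types, 337 to 471 in CG mutants and 485 to 568 in CG wild types. Cd14 alone held 241 to 315 CPM of these sums in the CT libraries and 317 to 527 in the CG libraries. Between the wild types, 4 of the 10 passed the test as higher in the CT line and 1, Cd14, as lower. Between mutants 2 passed as higher and 0 as lower. Over all genes tested, 17% passed as higher in CT and 16.8% as lower between wild types, and 17.9% and 18.2% between mutants. The 2 of 10 higher between mutants lie near that share. By sign, 9 of the 10 were higher in CT between wild types and 8 between mutants. The 13 immediate early and dissociation stress genes summed to 2441 to 2844 CPM in CT mutants, 2883 to 4087 in CT wild types, 1467 to 1501 in CG mutants and 1737 to 1773 in CG wild types. Hspa1a and Hspa1b, which encode inducible heat shock proteins, made up 945 to 1844 CPM of this in the CT libraries and 28.8 to 99.1 in the CG libraries, and without them the sums of the lines overlapped. Between wild types 7 of the 13 were higher in CT and 1, Junb, was lower, and between mutants 6 were higher and 3 (Junb, Ier2 and Dusp1) lower. In bulk RNA, fewer cells of a type and less RNA per cell cannot be told apart, and the part of other cell types in the results below was not tested.

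In the wild types, 7 of the 9 genes were lower in the CT line than in the CG line by edgeR's quasi-likelihood test (adjusted p under 0.05), against 16.8% of all genes tested. They were Saa3, Lcn2, Il6, Lif, Ptgs2, Ptges and Nos2, and none of the 9 was higher. The same comparison between mutants called 5 of the 9 lower (Saa3, Lcn2, Il6, Lif and Ptgs2), against 18.2% of genes. It compares other libraries but comes from the same fit, so the 2 comparisons share the estimate of spread behind their p-values. For these 5, each of the 4 CT libraries lay below each of the 4 CG libraries, as it did for 23.1% of genes. The 2 feedback inhibitor genes passed in neither comparison. The median log2 difference of the 9 was -2.72 between wild types and -1.76 between mutants, beside 0.00 and -0.01 over all genes tested. Leaving out either CG wild type library, or CT wild type replicate 2, brought the wild type count to 4 of the 9, and other single libraries left it at 6 to 8.

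**Figure D2:**
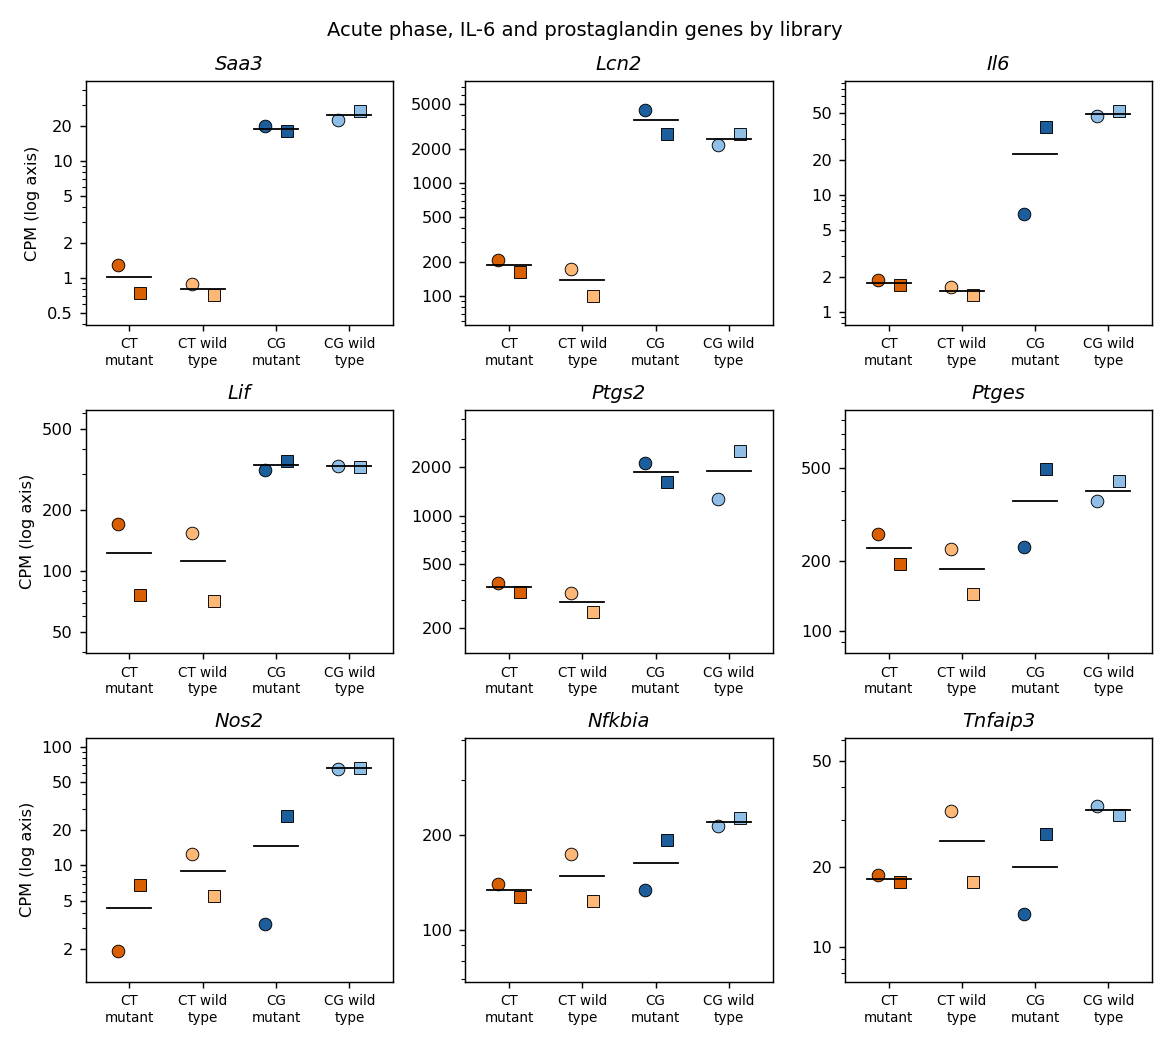
CPM of each of the 9 genes (log axis) in the CT mutants, CT wild types, CG mutants and CG wild types, 1 panel per gene; circles are replicate 1, squares replicate 2, and bars the mean of the group. Saa3, Lcn2, Il6, Lif and Ptgs2 have every CT point below every CG point, and CG mutant replicate 1 is the lowest CG point for 6 genes.

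Saa3 encodes a serum amyloid A protein, a lipid-binding acute phase protein that in mice is made largely outside the liver. It was counted at 1.27 and 0.744 CPM in CT mutants, 0.881 and 0.714 in CT wild types, 19.8 and 17.9 in CG mutants and 22.3 and 26.7 in CG wild types. Every CG library was far above every CT library, and within a line the libraries lay close together. The log2 difference was -4.94 ± 0.26 (SE) between wild types, a 30.6-fold lower level in CT (edgeR adjusted p = 0.000108), and -4.21 ± 0.25 between mutants (edgeR adjusted p = 0.000108). Among 14359 genes ranked by p, Saa3 was 7 in the wild type comparison and 18 in the mutant comparison.

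Lcn2 encodes lipocalin 2, which binds bacterial iron carriers and is made by epithelia, chondrocytes and neutrophils. Its levels were 209 and 165 CPM in CT mutants, 175 and 101 in CT wild types, 4422 and 2718 in CG mutants and 2162 and 2717 in CG wild types. The lines did not overlap, and CG mutant replicate 1 was the highest of the 8 libraries. Between wild types the log2 difference was -4.15 ± 0.35 (17.7-fold lower in CT, edgeR adjusted p = 0.000277) and between mutants it was -4.26 ± 0.35 (19.1-fold lower, edgeR adjusted p = 0.000271). Lcn2 is also a granule gene of neutrophils, whose summed markers were higher in the CT line, where Lcn2 was lower. The part of neutrophils in the Lcn2 levels was not tested.

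Il6 encodes interleukin 6, the cytokine that drives the hepatic acute phase response. It stood at 1.86 and 1.69 CPM in CT mutants, 1.62 and 1.39 in CT wild types, 6.81 and 37.7 in CG mutants and 46.8 and 52.1 in CG wild types. The CT libraries were uniformly low, the CG wild types high, and the 2 CG mutant libraries differed 5.53-fold. Between wild types the log2 difference was -5.03 ± 0.73 (32.8-fold lower in CT, edgeR adjusted p = 0.00224), and between mutants -3.65 ± 0.70 (edgeR adjusted p = 0.00596). The mutant value came to -4.41 without CG mutant replicate 1 and -1.94 without CG mutant replicate 2, and it passed the test both ways.

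Lif encodes leukaemia inhibitory factor, a cytokine of the same family that binds Lifr and gp130. Its levels were 170 and 76.1 CPM in CT mutants, 154 and 70.9 in CT wild types, 315 and 346 in CG mutants and 327 and 327 in CG wild types. All CT libraries lay below all CG libraries, and within both CT groups replicate 1 was more than 2 times replicate 2. The log2 difference was -1.54 ± 0.41 between wild types (edgeR adjusted p = 0.0239) and -1.43 ± 0.41 between mutants (edgeR adjusted p = 0.0292). Without the first or second CG wild type, or without the second CT wild type, the wild type call was lost, with adjusted p = 0.08, 0.0858 and 0.108 by edgeR. Without CG mutant replicate 1, CG mutant replicate 2 or CT mutant replicate 2, the mutant call was lost, with edgeR adjusted p = 0.0512, 0.0605 and 0.129.

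The 2 CT libraries with high Lif were also those with the Y-linked gene Ddx3y. Ddx3y was counted 3512 and 30 times in CT mutants, 3669 and 10 times in CT wild types, 2231 and 2360 times in CG mutants and 2 and 2511 times in CG wild types. In CG wild types, Lif was 327 CPM both in the library with 2 counts of Ddx3y and in that with 2511. Lif was not alone in this. In both CT groups, the library with more Ddx3y was also the higher for Saa3, Lcn2, Il6, Ptgs2, Ptges, Nfkbia and Tnfaip3. For Nos2 this held in CT wild types but not in CT mutants. The share of all genes with this order is not given. The part of sex in the spread of Lif and the other genes within the CT line was not tested.

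Ptgs2 encodes cyclooxygenase 2, the inducible enzyme that turns arachidonic acid into the precursor of the prostaglandins. It was counted at 383 and 334 CPM in CT mutants, 330 and 251 in CT wild types, 2122 and 1621 in CG mutants and 1278 and 2546 in CG wild types. The lines did not overlap, while the 2 CG wild types spanned both CG mutants. The log2 difference was -2.72 ± 0.32 between wild types (6.59-fold lower in CT, edgeR adjusted p = 0.000978) and -2.38 ± 0.32 between mutants (5.22-fold lower, edgeR adjusted p = 0.00127).

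Ptges encodes the inducible microsomal prostaglandin E synthase, the enzyme after Ptgs2 in the route to prostaglandin E2. Its levels were 260 and 195 CPM in CT mutants, 225 and 145 in CT wild types, 230 and 493 in CG mutants and 360 and 437 in CG wild types. The wild types of the lines did not overlap, but CG mutant replicate 1 fell among the CT libraries. Between wild types the log2 difference was -1.10 ± 0.35 (edgeR adjusted p = 0.0434), and between mutants it was -0.67 ± 0.35 (edgeR adjusted p = 0.169). The wild type call was close to the threshold: it held in 2 of the 8 fits that left out a library (CG mutant replicate 1 or 2), and edgeR adjusted p was 0.054 to 0.207 in the 6 fits without a CT mutant, CT wild type or CG wild type library, while DESeq2 gave 0.0576. Without CG mutant replicate 1 the mutants also passed, at -1.12 (edgeR adjusted p = 0.0165).

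Nos2 encodes the inducible nitric oxide synthase. It stood at 1.90 and 6.80 CPM in CT mutants, 12.6 and 5.54 in CT wild types, 3.20 and 26.1 in CG mutants and 65.4 and 65.6 in CG wild types. Both CG wild types were above every other library, and CG mutant replicate 1 was within the range of the CT libraries. The log2 difference was -2.86 ± 0.87 between wild types (7.24-fold lower in CT, edgeR adjusted p = 0.0367) and -1.76 ± 0.89 between mutants (edgeR adjusted p = 0.157). Leaving out any of the 4 wild type libraries ended the wild type call, with adjusted p = 0.103 and 0.108 without CG wild type replicates 1 and 2 and 0.0777 and 0.175 without CT wild type replicates 1 and 2, by edgeR. Without CG mutant replicate 1 the mutants passed (edgeR adjusted p = 0.0152), and without CG mutant replicate 2 their difference turned to 0.43.

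Nfkbia, the gene of IkB-alpha, was counted at 140 and 128 CPM in CT mutants, 174 and 123 in CT wild types, 134 and 194 in CG mutants and 214 and 226 in CG wild types. The wild types did not overlap, which made 8 of the 9 genes with both CT wild types below both CG wild types, against 35.5% of genes tested. The log2 difference between wild types, -0.56 ± 0.20, missed the threshold (edgeR adjusted p = 0.0637). It passed with DESeq2 (adjusted p = 0.0186), with a fit of the 4 wild type libraries alone (0.031, edgeR adjusted p) and without either CG mutant library (0.0231 each, edgeR adjusted p) or CT wild type replicate 1 (0.0339, edgeR adjusted p). Between mutants it was -0.29 ± 0.20 (edgeR adjusted p = 0.287).

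Tnfaip3, the gene of A20, stood at 18.6 and 17.5 CPM in CT mutants, 32.4 and 17.5 in CT wild types, 13.3 and 26.7 in CG mutants and 34.0 and 31.3 in CG wild types. CT wild type replicate 1 was among the CG wild types and CG mutant replicate 1 was the lowest of the 8. The log2 difference was -0.39 ± 0.34 between wild types (edgeR adjusted p = 0.41) and -0.15 ± 0.35 between mutants (edgeR adjusted p = 0.767), and the mutant value was 0.11 and 0.15 on FPKM scales with 1 and 0.1 added.

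**Figure D3:**
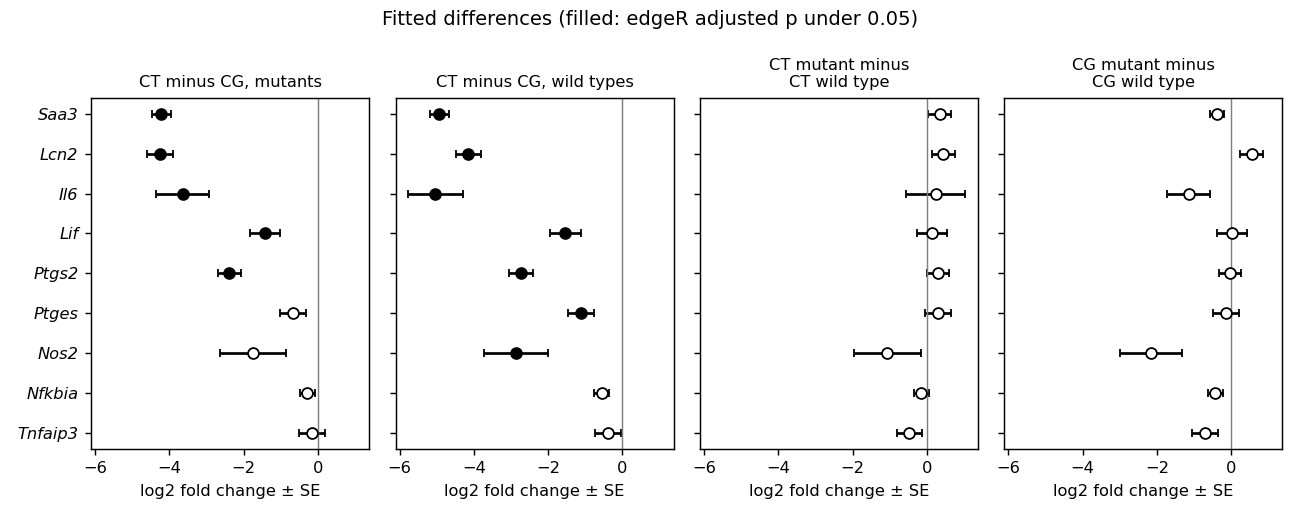
Log2 fold changes ± SE from the edgeR fit for the 9 genes (rows) in 4 comparisons: CT minus CG mutants, CT minus CG wild types, CT mutants minus CT wild types, and CG mutants minus CG wild types; filled points passed an adjusted p under 0.05. Filled points appear in the comparisons between lines, 5 in mutants and 7 in wild types, and none in the comparisons of mutants with their own wild types.

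Levels between genes were compared per length, as deposited FPKM. In CT wild types the order by mean FPKM was Lcn2 (189), Nfkbia (105), Ptgs2 (69.3), Ptges (54.3), Lif (28.8), Tnfaip3 (6), Nos2 (2.33), Saa3 (1.92) and Il6 (1.52). There, libraries of Ptgs2 and Ptges overlapped, as did those of Nos2 with Saa3 and with Il6. In CG wild types the order was Lcn2 (3059), Ptgs2 (418), Nfkbia (142), Ptges (107), Lif (77.4), Saa3 (53.2), Il6 (45.1), Nos2 (15.5) and Tnfaip3 (7.24) FPKM, and no neighbours in that order had overlapping libraries. By FPKM, Lcn2 ranked 194 to 459 among the 18501 genes in the 4 CT libraries and 7 to 9 in the 4 CG libraries.

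In CT mutants, mean FPKM was 264 for Lcn2, 96.8 for Nfkbia, 88.2 for Ptgs2, 68.8 for Ptges, 32.6 for Lif, 4.48 for Tnfaip3, 2.48 for Saa3, 1.82 for Il6 and 1.16 for Nos2. In CG mutants it was 4294 for Lcn2, 394 for Ptgs2, 103 for Nfkbia, 96.0 for Ptges, 76.3 for Lif, 39.7 for Saa3, 20.4 for Il6, 4.35 for Tnfaip3 and 3.47 for Nos2. In CT mutants the libraries of Nfkbia and Ptgs2 overlapped, as did those of Il6 with Saa3 and with Nos2. In CG mutants the libraries of Nfkbia, Ptges and Lif overlapped, as did those of Nos2 and Tnfaip3 with each other and with Il6.

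In the CG line, the effect of the mutation passed the test for 0 of the 9 genes by edgeR, against 0.00696% of all genes, and for 0 by DESeq2. At an unadjusted p under 0.05 there was 1, Nos2, against 11.4% of genes. Both CG mutant libraries lay below both CG wild types for 5 genes (Saa3, Il6, Nos2, Nfkbia and Tnfaip3; 22.5% of all genes did so) and above them for 1, Lcn2 (23.2% of all genes). Nos2 had the largest fitted difference of the 9, -2.16 ± 0.84 on the log2 scale (edgeR adjusted p = 0.392), followed by Il6 at -1.15 ± 0.59 (edgeR adjusted p = 0.503). The others ran from -0.71 ± 0.35 for Tnfaip3 to 0.55 ± 0.31 for Lcn2, with edgeR adjusted p of 0.471 or more.

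These CG values rested on libraries that differed. CG mutant replicate 1 was the lowest of the 4 CG libraries for 6 of the 9 genes (Il6, Lif, Ptges, Nos2, Nfkbia and Tnfaip3), against 32.6% of genes tested. For Il6, Ptges, Nos2 and Tnfaip3, 4 of the 9, it was under 50% of CG mutant replicate 2, against 7.47% of genes. Il6 stood at 13.8% of the CG wild type mean in replicate 1 and 76.2% in replicate 2, and Nos2 at 4.89% and 39.8%. Tnfaip3 stood at 40.7% of that mean in replicate 1 and 81.6% in replicate 2, Ptges at 57.8% and 124%, and Nfkbia at 60.9% and 88.1%. Lcn2 went the other way, at 181% in replicate 1 and 111% in replicate 2, while Saa3 (80.8% and 73.0%) and Lif (96.3% and 106%) were alike in both. Ptgs2 was also higher in replicate 1, at 111% and 84.8%, of a mean of CG wild types at 1278 and 2546 CPM. CG mutant replicate 1 was also the lowest CG library for 7 of the 8 summed marker lists. Its sums were 337 CPM for macrophage and leukocyte markers (471 to 568 in the other 3 CG libraries), 10.6 for neutrophil (19.8 to 25.5), 2676 for fibroblast and perichondrium (3718 to 3835), 11.7 for endothelial (26.1 to 36.0), 2.95 for erythroid (10.8 to 16.8) and 10.1 for skeletal muscle markers (23.2 to 38.1). Its immediate early and dissociation stress sum was 1467 CPM (1501 to 1773 in the others). For chondrocyte markers it was the highest, at 55313 CPM against 32293 to 34171. Col2a1 held 41085 CPM of that sum, against 24133 to 25746 in the other CG libraries. Not every marker followed the sum: Prg4 was lowest in CG mutant replicate 1, at 133 CPM against 220 to 317. Comp, Matn1 and Hapln1 were not highest there. The part of these shifts in the difference between the CG mutant libraries was not tested.

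**Figure D4:**
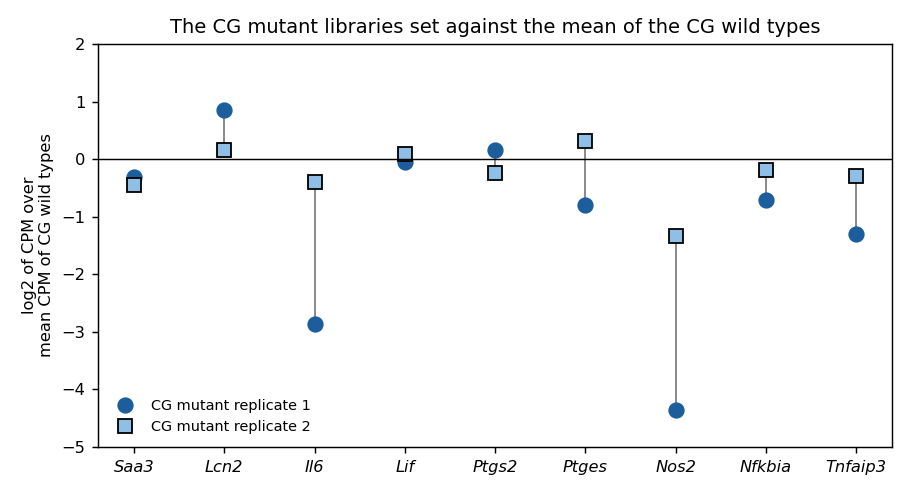
CPM of the 9 genes in each CG mutant library as log2 of the ratio to the mean of the 2 CG wild types (0 is equal); circles are replicate 1, squares replicate 2, and lines join them. Replicate 1 lies far below replicate 2 for Il6 and Nos2, and above it for Lcn2.

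With CG mutant replicate 2 left out, so that the lone library is assumed to vary like the other groups, the CG effect was -2.86 for Il6 (edgeR adjusted p = 0.00209) and -4.35 for Nos2 (edgeR adjusted p = 0.0255), and both passed. With CG mutant replicate 1 left out, the same effects were -0.39 (edgeR adjusted p = 0.755) and -1.33 (edgeR adjusted p = 0.835), and neither passed. Without CG mutant replicate 2, 522 of all genes passed, and without CG mutant replicate 1, 4 did.

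In the CT line, the effect of the mutation passed for 0 of the 9 genes by edgeR, against 0.00696% of all genes, with 0 at an unadjusted p under 0.05 (5.11% of genes) and 0 by DESeq2. Il6 and Ptgs2 were the 2 genes whose CT mutant libraries both lay above both CT wild types, as 17.2% of genes did. Their log2 differences were 0.24 ± 0.80 for Il6 and 0.31 ± 0.30 for Ptgs2. The remaining values ran from -1.06 ± 0.89 for Nos2 to 0.44 ± 0.31 for Lcn2, and edgeR adjusted p was 0.971 to 0.998 over the 9.

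The test of the difference between the mutant effects, CG effect minus CT effect, passed for 0 of the 9 by edgeR, against 0.0209% of genes, with 0 at an unadjusted p under 0.05 (4.78% of genes) and 0 by DESeq2. For Il6, both CG mutants lay below their wild types, as in 22.5% of genes, while both CT mutants lay above theirs, as in 17.2%. Il6 had the largest difference of the 9, at -1.39 ± 0.99 (edgeR adjusted p = 0.967). Without CG mutant replicate 2 this difference was -3.09 (edgeR adjusted p = 0.00827), and without CG mutant replicate 1 it was -0.63. For Saa3 it was -0.72 ± 0.36 (edgeR adjusted p = 0.967).

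Other genes of the same pathways were taken from 6 lists that hold none of the 9. Between the wild types, 67 of the 137 distinct list genes tested were lower in the CT line and 12 were higher, against 16.8% of all genes lower and 17% higher. Between mutants, 58 were lower and 11 higher, against 18.2% and 17.9% of all genes. The effect of the mutation passed for 0 list genes in the CT line and for 0 in the CG line by edgeR. At an unadjusted p under 0.05 there were 11 in the CT line (8.03%, against 5.11% of all genes) and 19 in the CG line (13.9%, against 11.4%). DESeq2 called 0 of them in the CT line, of 20 genes in all, and 5 in the CG line (Il1r1, Ptger4, Abcc4 and Serpina3n among them), of 213 in all.

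Among acute phase and iron or lipid binding proteins, 14 of the 21 tested were lower in CT wild types than in CG wild types and 1 was higher, with a median log2 difference of -1.21 beside 0.00 over all genes. Saa1 and Saa2, near-identical liver-type serum amyloid genes between which reads could be split, were at 0.523 and 0.304 CPM (Saa1) in CT mutants, 0.282 and 0.102 in CT wild types, 7.10 and 2.14 in CG mutants and 2.79 and 2.23 in CG wild types. Saa1 differed by -3.69 ± 0.73 between wild types (edgeR adjusted p = 0.00756) and Saa2 by -2.80 ± 0.73 (edgeR adjusted p = 0.0214). The 3 genes of the list with the smallest p were the complement genes Cfb (-3.66 ± 0.18) and C3 (-3.41 ± 0.22) and the haemoglobin-binding Hp (-4.04 ± 0.33). C3 stood at 30.7 and 25.03 CPM in CT mutants, 42.7 and 28.1 in CT wild types, 466 and 369 in CG mutants and 370 and 382 in CG wild types, with no overlap of the lines. Between mutants 15 of the 21 were lower in CT and 1 higher.

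In the IL-6 family and STAT3 list, 14 of 25 genes were lower in CT wild types and 4 were higher (median -0.59), and between mutants 13 were lower and 4 higher. Il11, a cytokine that also signals through gp130, was at 101 and 50.4 CPM in CT mutants, 55.7 and 40.1 in CT wild types, 699 and 616 in CG mutants and 513 and 608 in CG wild types, with a log2 difference of -3.55 ± 0.32 between wild types. Socs1, an inhibitor of cytokine signalling, was higher in CT wild types by 1.505 ± 0.131 on that scale. Of the receptor chains, Il6st (gp130) was lower in CT wild types (-0.79 ± 0.10, edgeR adjusted p = 0.00113), as was Osmr (-0.79 ± 0.12). Lifr, the chain that binds Lif, was higher (1.26 ± 0.30, edgeR adjusted p = 0.0158), and Il6ra, which binds interleukin 6, did not pass (-0.39 ± 0.18, edgeR adjusted p = 0.139). Stat3 was lower in CT wild types (-0.84 ± 0.14), as was its target and inhibitor Socs3 (-0.94 ± 0.26, edgeR adjusted p = 0.0252).

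Of 28 NF-kB subunits, kinases and feedback inhibitors tested, 16 were lower in CT wild types and 2 higher (median -0.41), and between mutants 13 were lower and 1 higher. Nfkb1, the gene of p50, differed by -0.90 ± 0.17 (edgeR adjusted p = 0.00628) and Relb by -0.59 ± 0.14 (edgeR adjusted p = 0.0146) between wild types. Rela, the gene of p65, did not pass (-0.22 ± 0.17, edgeR adjusted p = 0.329). Nfkbie, an inhibitor related to Nfkbia, was lower in CT wild types (-1.17 ± 0.20, edgeR adjusted p = 0.00454), and Tnip1, a partner of A20, did not pass (-0.18 ± 0.17). Birc2, a ubiquitin ligase of TNF receptor signalling, was lower (-1.14 ± 0.13), as was the kinase gene Ikbke (-1.68 ± 0.29).

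Of 24 inducing cytokines, receptors and adaptors tested, 12 were lower in CT wild types and 0 higher by edgeR (median -0.48), and between mutants 8 were lower and 0 higher. Tnf stood at 1.90 and 1.56 CPM in CT mutants, 3.24 and 0.986 in CT wild types, 1.87 and 6.52 in CG mutants and 9.02 and 11.8 in CG wild types, with a log2 difference of -2.30 ± 0.63 between wild types (edgeR adjusted p = 0.0257). Il1a was lower in CT wild types (-1.85 ± 0.56, edgeR adjusted p = 0.0375), and Il1b, at most 2.83 CPM in any library, did not pass (-1.08 ± 0.72, edgeR adjusted p = 0.275). Il1rn, the gene of the interleukin 1 receptor antagonist, differed most of those named by p, at -3.74 ± 0.31. It was followed by Irak3 (-2.47 ± 0.22), an inhibitor of the same pathway, and Il1rap (-1.19 ± 0.16), a chain of the interleukin 1 receptor.

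Of 22 prostanoid genes tested other than Ptgs2 and Ptges, 4 were lower in CT wild types (18.2%) and 3 higher (13.6%), with a median of -0.33, and between mutants 3 were lower (13.6%) and 4 higher (18.2%). These shares are near those of all genes tested, 16.8% lower and 17% higher between wild types and 18.2% and 17.9% between mutants. Without CG mutant replicate 1 the lower count of this list rose in both comparisons, an alternative added after the data were seen. In the other lists the lower count moved by at most 1.5 times. That fit leaves 1 CG mutant library. The share of all genes lower in it is not given, so the rise was not set against a background. Ptgs1, the constitutive cyclooxygenase, differed by -0.48 ± 0.08 between wild types, and Ptges3, a cytosolic co-chaperone with prostaglandin E synthase activity, was higher in CT by 0.49 ± 0.08. Abcc4, a transporter that exports prostaglandins, was lower (-1.62 ± 0.22), as were the prostaglandin E2 receptor genes Ptger2 (-1.34 ± 0.42, edgeR adjusted p = 0.0415) and Ptger4 (-0.73 ± 0.22, edgeR adjusted p = 0.034).

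In the nitric oxide and arginine list, 7 of 17 were lower in CT wild types and 2 higher (median -0.41), and between mutants 6 were lower and 1 higher. Slc7a2, a transporter of arginine, the substrate of Nos2, was at 472 and 387 CPM in CT mutants, 629 and 346 in CT wild types, 1566 and 2263 in CG mutants and 2449 and 2809 in CG wild types. No CT library reached a CG library, and the log2 difference between wild types was -2.43 ± 0.30. Gch1 (-1.34 ± 0.19) and Pts (-1.14 ± 0.19), enzymes that make the cofactor tetrahydrobiopterin, were lower, as was Ass1 (-1.05 ± 0.32, edgeR adjusted p = 0.0379), which serves arginine synthesis.

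**Figure D5:**
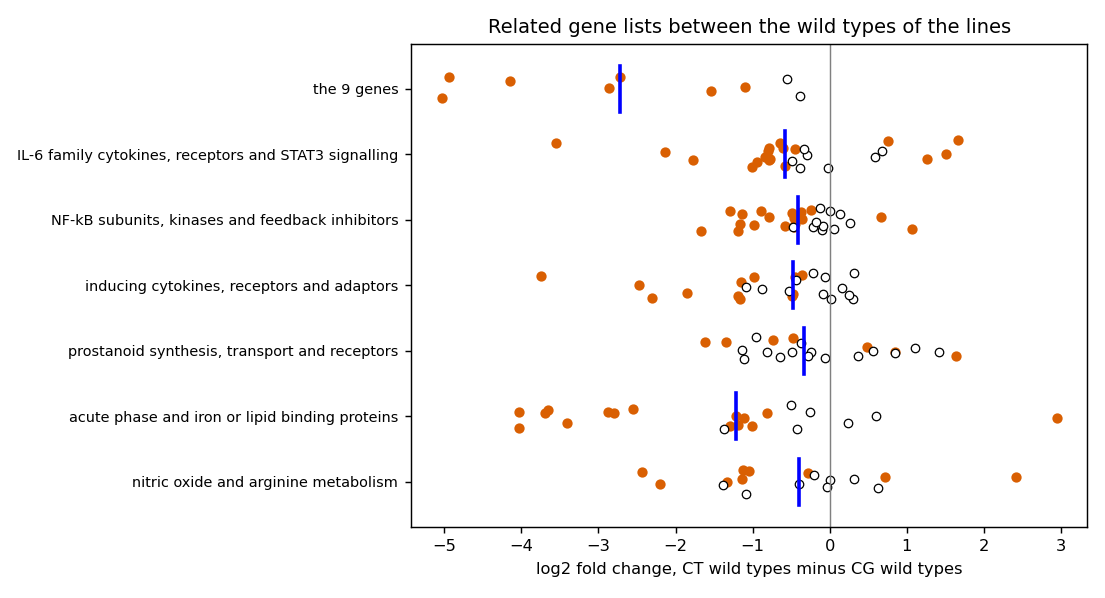
Log2 fold changes between CT wild types and CG wild types for the 9 genes and for the tested genes of 6 related lists (rows); each point is a gene, filled where the edgeR adjusted p was under 0.05, and the blue bar is the median of the row. All 9 genes lie below 0, with a median of -2.72, and the list medians run from -1.21 to -0.33.

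Genes with the pattern most like each of the 9 were ranked by Pearson's r of log2 CPM over the 8 libraries, among 11163 genes; the points share their library and line. For Ptges these were Cyp27b1 (r = 0.985) and Nbl1 (0.967), for Nos2 Pde4b (0.969) and Nlrp3 (0.967), and for Nfkbia Manba (0.988) and Tnf (0.986). For Tnfaip3 they were Gem (0.974) and Ubn1 (0.971), and for Lif Lpp and Ccdc9 (both 0.982). For Il6, Podn reached 0.994, and the pairs were, for Saa3, Zfp384 (0.997) and Zfp715 (0.996), for Lcn2, Bbs1 and Tecpr2 (both 0.999), and for Ptgs2, Pkd1l1 (0.993) and Tecpr2 (0.992). The number of genes with r above 0.9 was 1455 for Saa3, 1482 for Lcn2, 1332 for Ptgs2, 651 for Il6 and 599 for Lif. It was 139 for Nfkbia, 74 for Ptges, 62 for Nos2 and 40 for Tnfaip3, the 4 genes whose libraries of the 2 lines overlapped.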

How the data were processed

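RNA of plated rib chondrocytes was sequenced in 8 libraries on DNBSEQ, per the series design text. HISAT2 2.0.4 and the build mm9 appear in the submitters' processing notes, and what counted the reads, over which annotation, is not stated there. For each gene, the authors' deposited table lists the estimated count and FPKM of every library, per the file headers. The deposited estimated counts were not normalized; they were rounded to whole numbers (2282 to 2518 genes per library were not whole) and tested with edgeR 4.0.16 in R 4.3.3. One quasi-likelihood fit held 4 group means over 8 libraries, with TMM factors and the default filter on low counts, leaving 14359 genes and 4 residual degrees of freedom. P-values were adjusted by Benjamini-Hochberg over all genes tested, with a threshold of 0.05; SE is the absolute log2 fold change over the square root of F. The authors' FPKM values served for levels between genes and for limma 3.58.1 on log2(FPKM + 1) or log2(FPKM + 0.1).

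Alternatives were RLE size factors, DESeq2 1.42.0, no filter on low counts, a replicate block, fits of 4 libraries, and leaving out each library. Counts of the 9 genes and list counts without CG mutant replicate 1 were added after the data were seen. Libraries of any pair differed by more than sampling noise. The 9 genes and the gene lists were chosen with earlier results of these data known. Named were all 9 genes, direct partners, and the 3 genes of a list with the smallest p in a comparison; C3, Il11 and Slc7a2 are shown per library as examples chosen after their values were seen. Sequences are from RefSeq on GRCm38.p6, matched by symbol, and 3′ UTRs from GENCODE M21; coordinates are on that build and not the submitters'. A table of the authors' comparisons held none of the 9 genes and was not used. Some genes that these rules would name are not reported here.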

Additional observations from a re-analysis of the deposited data

Results flagged for a closer look

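Il6 was the gene of the 9 whose mutant libraries lay on opposite sides of their wild types in the 2 lines. Both CG mutants (6.81 and 37.7 CPM) were below both CG wild types (46.8 and 52.1 CPM), while both CT mutants (1.86 and 1.69 CPM) were above both CT wild types (1.62 and 1.39 CPM). Taken alone, the CG side held for 22.5% of all genes tested and the CT side for 17.2%. The share of genes with both was not counted. The CT side rests on low estimated counts, 57 and 50 in mutants and 46 and 41 in wild types. The difference between the effects, CG minus CT, was -1.39 on the log2 scale and did not pass (edgeR adjusted p = 0.967).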

How the results depend on the processing

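Saa3, Lcn2, Il6 and Ptgs2 stayed lower in the CT line, past the threshold, in both wild types and mutants under every alternative run, with leave-one-out values of -5.09 to -4.79, -4.60 to -3.80, -5.14 to -4.93 and -3.14 to -2.14 between wild types. No member reversed between wild types. The number of genes past the threshold for the CG effect, the CT effect and their difference (1, 1 and 3) was 213, 20 and 38 with DESeq2 and 13, 2 and 5 with no filter on low counts. With limma on FPKM the CG effect had 4 genes (1 added) or 3 (0.1 added) and the CT effect 3 (1 added), and with 4 libraries only the CT effect had 3. Leaving out 1 library gave 1 to 522 genes for the CG effect, 0 to 4 for the CT effect, 1 to 97 for their difference, 2137 to 5324 between wild types and 2908 to 5210 between mutants. The cause was not tested.

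Replicate numbers are shared between groups, and the labels do not say what a number marks. Deviations with the same number correlated at 0.248 in the CT line, where both replicate 1 libraries also carried Ddx3y, and at -0.09 in the CG line, so the block was kept as an alternative. With the replicate block, the CT effect had 4 genes and the difference 6, Ptgs2's CG effect turned to 0.040, and Nfkbia passed between wild types (edgeR adjusted p = 0.0268). On FPKM scales (1 or 0.1 added) Lif's CG effect was -0.028 in both, Lcn2's difference of effects was -0.046 and -0.048, and Tnfaip3 between mutants was 0.11 and 0.15; Ptges between wild types missed the threshold (limma adjusted p = 0.0765 and 0.0709). With 0.1 added, the median over all genes moved to 0.13 between wild types and 0.20 between mutants, and calls were 3207 higher and 1592 lower, and 4088 and 1528, against 2436 and 2407, and 2564 and 2620, in edgeR. With 1 added they were 3248 and 1567, and 4040 and 1504.

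Signs that turned when 1 library was left out belong to values that had not passed. For the CG effect the ranges were -0.049 to 0.082 for Lif, -0.45 to 0.56 for Ptgs2 and -0.79 to 0.31 for Ptges. For the CT effect they were -0.10 to 0.68 for Saa3, -0.56 to 0.79 for Lif, -0.38 to 0.12 for Nfkbia and -0.84 to 0.048 for Tnfaip3. For the difference of effects they were -0.34 to 0.46 for Lcn2, -0.78 to 0.58 for Lif, -0.75 to 0.25 for Ptgs2, -1.08 to 0.012 for Ptges, -3.29 to 0.10 for Nos2 and -0.82 to 0.18 for Tnfaip3. Between mutants they were -2.95 to 0.43 for Nos2 and -0.57 to 0.43 for Tnfaip3.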
